A study of Mus musculus with 4 samples.

Results

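The ParaHox genes are the homeobox genes of a sister group of the Hox clusters. Those considered here are the caudal-type genes Cdx1, Cdx2 and Cdx4, the genes Gsx1 and Gsx2, and Pdx1. Mnx1, a homeobox gene of motor neurons and the pancreas, was counted with them. A gene was included through every non-control probe whose RefSeq transcript accession belongs to it, and no measured value entered this matching. The genes themselves were chosen with earlier results of these data known. In all, 7 probes of 6 of the 7 genes were found among 55562 probes with a value on every array, or 6 of 20257 genes named through RefSeq. No probe matched Mnx1, which was not analysed here.

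Total RNA of 4 mouse ES cell lines was measured on 1-colour SurePrint G3 Mouse GE 8×60K arrays, with 1 array per line. Parental ES are EB3 cells and carry no fusion gene. The 2 Nup98-HoxA9 ES lines, clones #1 and #9, are separate hygromycin B-selected colonies of EB3 cells, and each stably expresses a FLAG-tagged fusion of the N-terminus of human Nup98 with the C-terminus of HoxA9 from an integrated Tol2 transposon. HoxA9-Ct ES is 1 clone made in the same way, which expresses the HoxA9 C-terminus with its homeodomain and lacks Nup98. All lines were grown on gelatin with LIF, the cytokine that maintains ES cells. One slide and one scan hold all 4 arrays. Each line is a single clone or culture on 1 array, so a difference between lines cannot be told apart from a difference between clones, and only the Nup98-HoxA9 clones give a spread.

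All 14 ES cell markers examined were well above background on the 4 arrays, and the level of Pou5f1, a core pluripotency factor, was between 6.28 and 6.56. A level here is the log2 of a processed signal after division by the array's 75th percentile. By the background rule the Hoxa9 level of the clones exceeded that of parental ES at least 30.6-fold, but its probe did not pass the background call in parental or HoxA9-Ct ES. The probe thus gives no check of the HoxA9-Ct transgene, and which part of the transcript it reads was not determined.

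Cdx proteins bind DNA through the homeodomain and switch on posterior Hox genes in the elongating embryo, where Wnt, Fgf and retinoic acid signals set Cdx transcription. Cdx2 also specifies the trophectoderm, the outer layer of the blastocyst, and both Cdx1 and Cdx2 act in the intestinal epithelium of the adult. Pdx1 is required for the pancreas and drives insulin transcription in beta cells. Gsx1 and Gsx2 pattern progenitors of the ventral telencephalon and the dorsal spinal cord. In the mouse genome Gsx1, Pdx1 and Cdx2 lie next to one another on chromosome 5 as the remaining ParaHox cluster, while the other genes lie apart from it.

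RefSeq promoter windows (GRCm38.p6, from 250 bases before to 50 bases after the gene start) were at hand for 6 of the 7 genes, all but Cdx1. They are shown for Cdx2, the member called in the Nup98-HoxA9 clones, for Cdx4, its paralogue without signal, and for Gsx2, the member above background in HoxA9-Ct ES alone. Each is written 5′ to 3′ on the strand of the gene, with matches on either strand in capitals to TTTATNG (a motif of Cdx and posterior Hox proteins), TAAT (the homeodomain core), TGACAG (TALE proteins, the partners of Hox proteins), ATCAAAG (Tcf and Lef) or TATAAA (the TATA box).
Cdx2 promoter, chr5:147307200-147307499, minus strand: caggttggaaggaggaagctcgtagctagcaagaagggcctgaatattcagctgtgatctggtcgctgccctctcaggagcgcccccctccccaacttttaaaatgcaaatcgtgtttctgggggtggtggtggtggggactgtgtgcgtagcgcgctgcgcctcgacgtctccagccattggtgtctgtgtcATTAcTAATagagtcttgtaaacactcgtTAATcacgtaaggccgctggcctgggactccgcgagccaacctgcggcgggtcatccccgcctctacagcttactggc
Cdx4 promoter, chrX:103321148-103321447, plus strand: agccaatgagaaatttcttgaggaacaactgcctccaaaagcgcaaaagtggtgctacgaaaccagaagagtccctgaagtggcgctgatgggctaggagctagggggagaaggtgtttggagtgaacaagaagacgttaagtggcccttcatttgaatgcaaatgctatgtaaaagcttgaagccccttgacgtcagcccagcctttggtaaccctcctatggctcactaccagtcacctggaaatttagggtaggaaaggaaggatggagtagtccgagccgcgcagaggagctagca
Gsx2 promoter, chr5:75075351-75075650, plus strand: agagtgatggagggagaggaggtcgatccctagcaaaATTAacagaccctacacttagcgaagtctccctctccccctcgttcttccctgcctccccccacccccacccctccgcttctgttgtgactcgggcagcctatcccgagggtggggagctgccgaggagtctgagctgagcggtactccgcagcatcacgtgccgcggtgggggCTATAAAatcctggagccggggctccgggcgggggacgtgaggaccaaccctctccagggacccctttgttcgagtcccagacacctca

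The Cdx2 window held 3 TAAT cores and no other match, and the Cdx4 window held no match to any of the 5 motifs. The Gsx2 window held 1 TAAT core and 1 TATA box, and the TATA box overlaps its TTTATNG match, which lies on the opposite strand. Among the windows not shown, Gsx1 held 2 TAAT cores, Pdx1 held 1 TGACAG match, and Mnx1 held 1 TAAT core and 1 TGACAG match. Of all 32851 promoter windows of this length, 58.0% held TAAT, 19.2% TGACAG, 13.6% TATAAA, 10.9% TTTATNG and 3.73% ATCAAAG. The CpG dinucleotides numbered 18 in Cdx2, 8 in Cdx4, 19 in Gsx1, 17 in Gsx2, 11 in Pdx1 and 26 in Mnx1, beside a median of 7 over all windows. A match is a description of the letters and not a binding site.

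The question put to the members was whether their levels differ between cells with the Nup98-HoxA9 fusion, cells with its HoxA9 part alone and parental cells. Cdx1 and Cdx2 were higher in both Nup98-HoxA9 clones than in parental ES, Gsx1 was lower in both, Gsx2 was above background in HoxA9-Ct ES only, and Cdx4 and Pdx1 stayed below the background call in every line. Of these differences limma called that of Cdx2 against parental ES. That call rests on a parental value below the background and was lost under 4 alternatives, while Cdx1 was called under 3. Among the 4 are quantile normalization and a filter on the background call, with which limma called 0 of all probes. Of the 6 genes, 2 were well above background in parental ES and 3 in each of the other lines, beside 49.9% to 53.0% of all spots. Levels are compared between lines and not between genes, since each probe has its own efficiency.

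**Figure D1:**
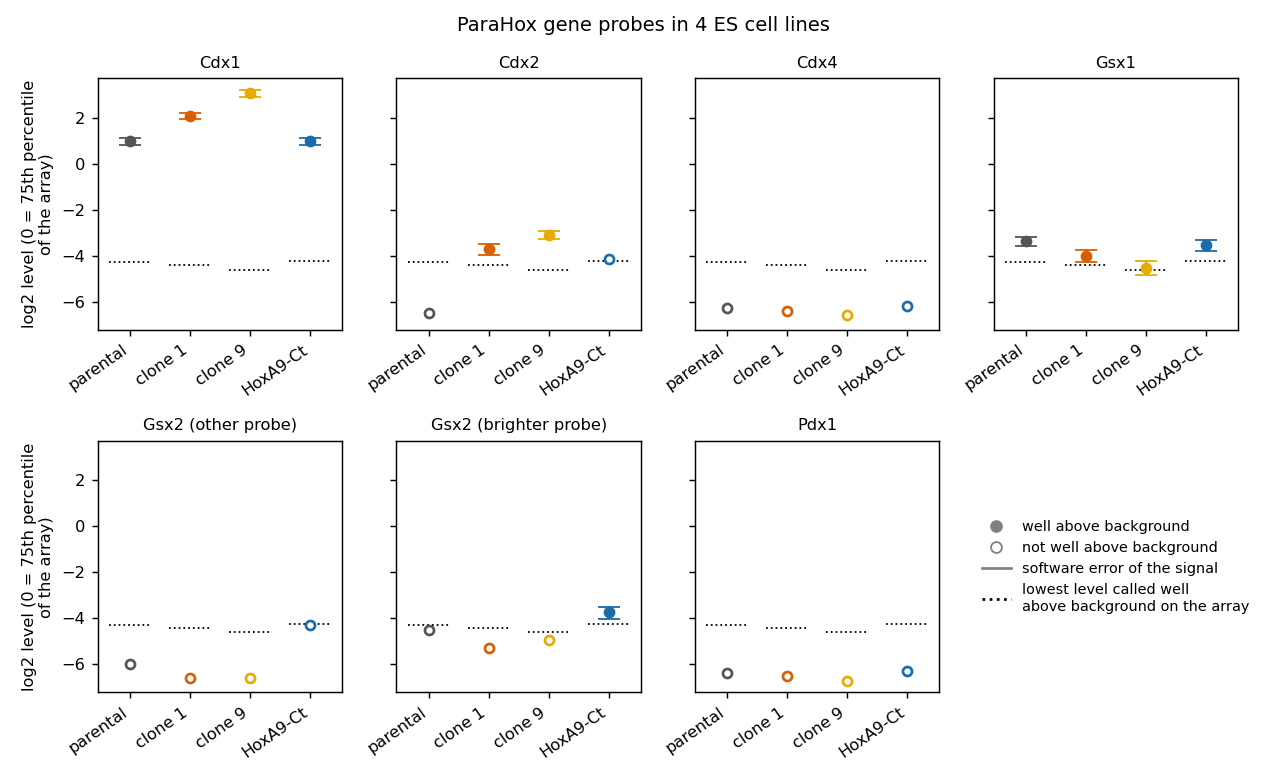
Level of each ParaHox probe in the 4 lines (log2 processed signal, with 0 at the 75th percentile of the array), 1 array per line. Filled points are well above background, bars are the software's error of the spot, and dotted lines mark the lowest level called well above background on that array. Cdx1 is filled in all lines and highest in clone #9, Cdx2 is filled in the clones alone, and Cdx4 and Pdx1 are open throughout.

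Cdx1, a caudal-type factor that retinoic acid and Wnt signals regulate in the embryo, gave processed signals of 449 ± 45 in parental ES and 409 ± 41.0 in HoxA9-Ct ES. Clone #1 gave 933 ± 93.4 and clone #9 gave 2124 ± 212. The error is the one the scanner software assigns to the spot (n = 1 spot on 1 array per line) and covers no biological spread. Its levels were 0.97 in parental and HoxA9-Ct ES, 2.07 in clone #1 and 3.07 in clone #9, all well above background. Both clones lay above both other lines. Clone #1 was 2.14 times and clone #9 4.28 times the parental level, while HoxA9-Ct ES was 0.998 times it.

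The mean of the Nup98-HoxA9 clones was 2.57 ± 0.71 (SD, n = 2), a log2 difference of 1.60 from parental ES (SE 0.56, 95% interval 0.51 to 2.69). In limma, with the spread taken from the clones and from all probes, this had an adjusted p of 0.174 and was not called. The difference from HoxA9-Ct ES was also 1.60 (adjusted p = 0.164 in limma), and that of HoxA9-Ct from parental ES was -0.00 (95% interval -1.26 to 1.26, adjusted p = 1.00). The interval for HoxA9-Ct ES therefore spans 0.417 to 2.39 times the parental level. The clones were called higher for Cdx1 under 3 alternatives (the normexp background correction, a floor at the lowest level well above background, and limma with trend and robust on), with adjusted p from 3.89e-08 to 0.00269 against parental ES and from 3.28e-08 to 0.00313 against HoxA9-Ct ES. Over the other alternatives with a test, and both references, the adjusted p ranged from 0.163 to 0.718.

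The clones themselves differed at Cdx1 by 1.00 on the log2 scale, or 2.0-fold. The background call was met on every array by 25529 probes, of which 901 (3.53%) differed between the clones by at least as much. Both clones exceeded parental ES more than 2-fold at Cdx1, as they did at 282 of these 25529 probes (1.10%). Cdx1 and Gsx1 are the members that could meet this criterion, and 1 of these 2 did.

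Cdx2, the trophectoderm and gut factor, gave signals of 2.55 ± 2.57 in parental ES and 11.8 ± 2.68 in HoxA9-Ct ES. Clone #1 gave 16.8 ± 2.79 and clone #9 gave 29.5 ± 3.72. The software called it well above background in both clones and in neither other line. In HoxA9-Ct ES the spot was significantly positive without reaching that call, although its signal exceeded the lowest one called so on that array, 11.1. In parental ES the spot was at the value the software gives in place of signals below the background. This pattern of background calls, with both clones above and parental ES not, was found for 959 of 55562 probes (1.73%), and for 1 of the 6 members.

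The levels of Cdx2 were -6.49 in parental ES and -4.15 in HoxA9-Ct ES, and -3.72 and -3.10 in clones #1 and #9. Against the lowest level called well above background in parental ES, clone #1 was at least 1.47-fold and clone #9 at least 2.26-fold higher, and the mean of the clones at least 1.82-fold higher. Limma, fitted to the values as given, called the rise at a log2 difference of 3.08 (SE 0.56, adjusted p = 1.04e-05). Limma called 0.781% of all probes higher and 0.625% lower in this comparison, and 1 of the 6 members higher and 0 lower. An unadjusted p under 0.05 in limma was reached by 2 of the 6, Cdx1 and Cdx2, beside 3476 of all 55562 probes. The size of the Cdx2 difference rests on the parental value below the background, and with the floor at the lowest level well above background it was 0.86 (adjusted p = 0.573 in limma). With normexp the difference was 0.42 and was not called (adjusted p = 1.00 in limma). The call was also lost with quantile normalization and once probes below the background call on all arrays were left out, at differences of 3.18 and 3.08 (adjusted p = 0.442 and 0.386 in limma). In these settings limma called 0 of all probes, so the loss is not particular to Cdx2.

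Between the clones and HoxA9-Ct ES the Cdx2 level differed by 0.74 (SE 0.56, 95% interval -0.35 to 1.83), which limma did not call (adjusted p = 1.00). The clones were at 1.67 times the HoxA9-Ct level. This is the measured ratio and no lower bound, since the HoxA9-Ct level lay above the lowest one called on its array. HoxA9-Ct ES lay 2.34 above parental ES on the same scale (adjusted p = 0.0600 in limma), but neither line was well above background and no fold is given. The order of the lines was thus clone #9, clone #1, HoxA9-Ct ES and parental ES, and the step from clone #1 to HoxA9-Ct ES, 16.8 against 11.8 in signal, was within the sum of the errors of these spots. The comparisons share the parental array and the clones, so they are not independent of each other.

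Cdx4, the X-linked caudal gene of the posterior embryo, did not pass the background call in any line. Its signals were 2.96 in parental ES and 2.89 in HoxA9-Ct ES, and 2.64 and 2.60 in clones #1 and #9, and the software's error of each was about as large as the signal. Pdx1 likewise gave 2.73 in parental ES, 2.64 in HoxA9-Ct ES, and 2.44 and 2.39 in the clones. No fold is given for either, and differences between lines were not detectable at these signals.

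Gsx1 was well above background in all lines but close to the limit. Its signals were 22.1 ± 3.22 in parental ES and 18.0 ± 2.85 in HoxA9-Ct ES. Clone #1 gave 13.9 ± 2.48 and clone #9 gave 11.0 ± 2.33. Both clones lay below both other lines, at 0.647 and 0.452 times the parental level. The step from HoxA9-Ct ES to clone #1, 18.0 against 13.9 in signal, was within the sum of the errors of these spots. Limma did not call the difference of -0.89 from parental ES (SE 0.56, 95% interval -1.98 to 0.20, adjusted p = 1.00), nor that of -0.72 from HoxA9-Ct ES (adjusted p = 1.00). HoxA9-Ct ES was at 0.892 times the parental level, a difference of -0.17 with a 95% interval of -1.42 to 1.09, and its sign turned with normexp (0.02).

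Gsx2 had a pair of probes. The brighter probe gave 10.0 ± 2.81 in parental ES and 15.6 ± 2.94 in HoxA9-Ct ES, 5.68 ± 2.38 in clone #1 and 8.09 ± 2.44 in clone #9, and was well above background in HoxA9-Ct ES alone. By the background rule, which leaves out the error of the spots, HoxA9-Ct ES was at least 1.44-fold above parental ES and at least 1.71-fold above the clones. Limma called neither the difference of 0.77 from parental ES (adjusted p = 1.00) nor that of the clones from HoxA9-Ct ES, -1.38 (adjusted p = 0.343).

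The other Gsx2 probe gave 3.65 in parental ES, 10.7 in HoxA9-Ct ES, and 2.32 and 2.64 in clones #1 and #9, and passed the background call nowhere. It too was highest in HoxA9-Ct ES, and limma called the clones lower than HoxA9-Ct ES by 2.29 on the log2 scale (adjusted p = 0.00516), a call between values below the background for which no fold is given. Read at the brighter probe, 0 of the 6 members were called in HoxA9-Ct against parental ES, where limma called 0.216% of all probes higher and 0.189% lower, and 0 in the clones against HoxA9-Ct ES, where it called 0.673% higher and 0.688% lower. An unadjusted p under 0.05 in limma was reached by 1 of 6 and 2 of 6 members in these comparisons, beside 1951 and 3637 of 55562 probes.

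**Figure D2:**
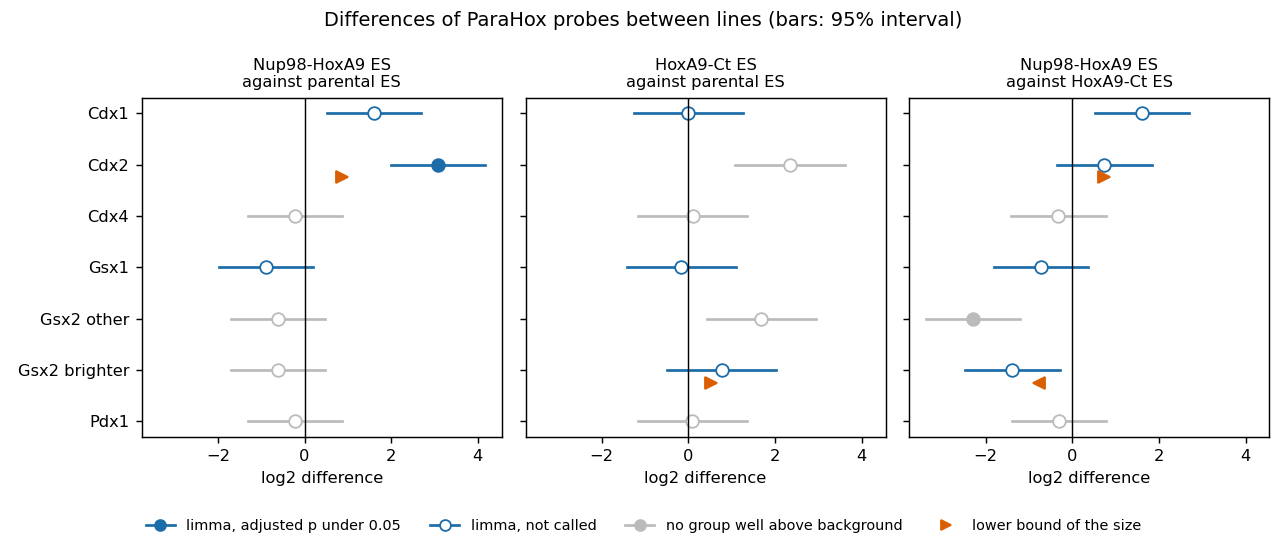
Log2 difference of each ParaHox probe in the 3 comparisons from limma, with its 95% interval, filled where the adjusted p is under 0.05 and gray where no group is well above background. Triangles give the lower bound of the size where 1 side is below the background, which for Cdx2 against HoxA9-Ct ES is the measured difference itself. Cdx2 is called against parental ES at 3.08 with a bound of 0.86, the Cdx1 intervals against both references stay above 0, and the gray filled point is the dim Gsx2 probe.

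The median difference of the 6 genes between the clones and parental ES was -0.22, beside -0.18 over all probes. With the floor both medians were -0.25, the offset between the floors of the arrays. A probe below the floor in all lines compared takes this value, as Cdx4, Pdx1 and Gsx2 did. The equality is thus set by the floor and says nothing of the members. Without the floor, the medians were 0.09 beside 0.06 for HoxA9-Ct against parental ES and -0.32 beside -0.21 for the clones against HoxA9-Ct ES.

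Gene order around the members was read from the RefSeq table, taking the 3 nearest protein-coding genes on each side. Of 30 such neighbours 27 were measured, and limma called 1 higher and 0 lower in the clones than in parental ES. Around the cluster, Mtif3, Lnx2 and Polr1d before Gsx1 and Pan3 beyond Cdx2 were well above background in all lines, with ratios of 0.845 to 1.04 to parental ES in the clones and HoxA9-Ct ES. Pdx1, between Gsx1 and Cdx2, was not well above background, nor was Flt3, a cytokine receptor of blood progenitors, on the far side.

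Urad, the gene next to Cdx2, which acts in urate breakdown, had levels of -3.33 in parental ES and -6.07 in HoxA9-Ct ES, and -4.61 and -3.78 in clones #1 and #9. It was above background in parental ES and clone #9 alone. Limma called it lower in HoxA9-Ct than in parental ES (log2 difference -2.73, adjusted p = 0.00812), at least 1.87-fold by the background rule, and did not call it in the clones (-0.86, adjusted p = 1.00).

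Pdgfra, the receptor gene next to Gsx2, was the neighbour called higher in the clones, with levels of -4.05 in parental ES and -4.71 in HoxA9-Ct ES, and -1.42 and -1.27 in clones #1 and #9. The rise over parental ES was 6.48-fold (log2 difference 2.70, adjusted p = 0.000287 in limma). This is the measured ratio and no lower bound, since the parental level lay above the lowest one called on its array. Lnx1, on the other side of Gsx2, stood at 0.558 and 0.272 times the parental level in the clones and was not called (adjusted p = 0.388 in limma). Pdgfrb, a receptor gene like Pdgfra, is the nearest measured neighbour on its side of Cdx1. It stood at 1.47 times the parental level in clone #1, 2.59 times in clone #9 and 1.07 times in HoxA9-Ct ES. Limma did not call it in the clones against parental ES (log2 difference 0.97, adjusted p = 1.00). The other neighbours of Cdx1 with signal, Camk2a, Slc6a7 and Csf1r, had ratios from 0.689 to 1.17.

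**Figure D3:**
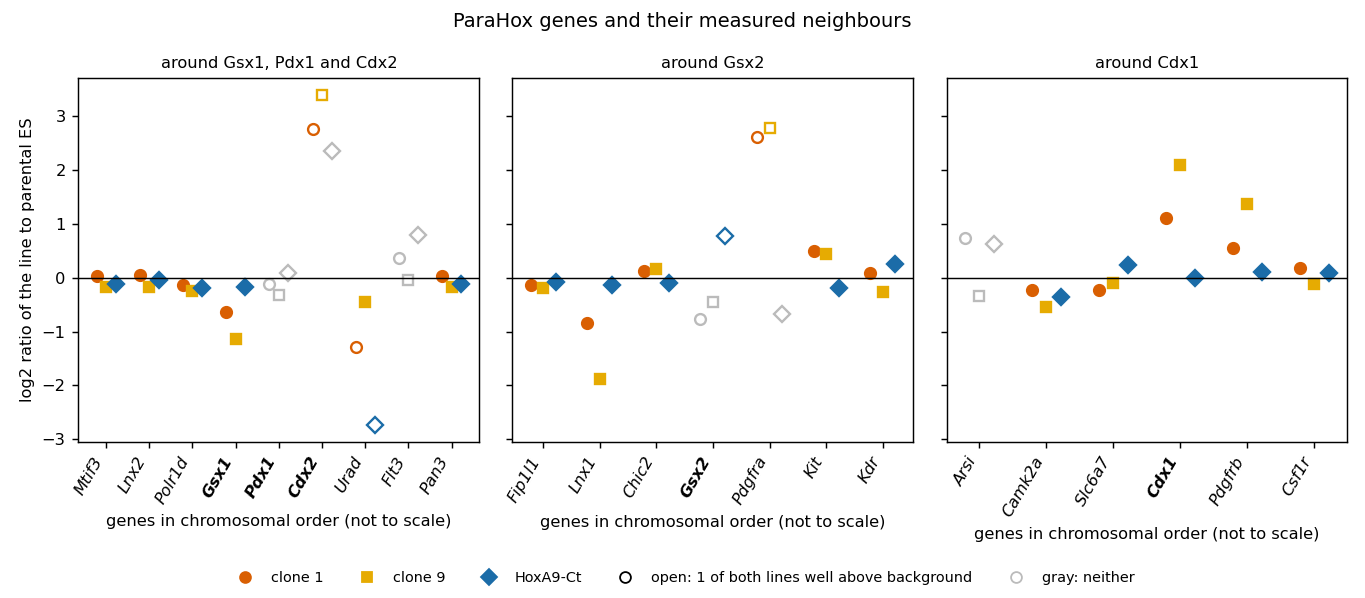
Log2 ratio to parental ES of the clones and HoxA9-Ct ES for ParaHox genes (bold) and their measured neighbours in chromosomal order, not to scale. Filled points have both lines well above background, open coloured points 1 of both, and gray points neither. Cdx2 and Pdgfra are the genes with both clones above 2, and the genes before Gsx1 lie near 0.

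Hox cluster genes, which Cdx proteins regulate in the embryo, were the list with the most calls. In the clones 23 of 39 rose over parental ES and 0 fell, with a median log2 difference of 2.97 beside -0.18 over all probes, or 1.63 beside -0.25 with the floor. Hoxa3 was at least 131-fold, Hoxa10 at least 56.4-fold, Hoxc6 at least 29.8-fold and Hoxa11 at least 40.0-fold higher, and Hoxa7 was 181-fold higher. In HoxA9-Ct ES 2 of 39 rose and 0 fell, Hoxb3 at least 7.58-fold and Hoxd4 at least 2.41-fold. Of 8 homeobox relatives outside the clusters (Evx, Meox, Gbx and En genes), 0 were called in any of the 3 comparisons.

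Of 17 genes of the posterior embryo around Cdx, 3 rose and 3 fell in the clones against parental ES, with a median of -0.20. Those that rose belong to retinoic acid signalling. Aldh1a2, which makes retinoic acid, was 4.33 times the parental level in clone #1 and 15.5 times in clone #9. Cyp26a1, which degrades it, rose at least 2.80-fold, and the receptor gene Rarb at least 3.37-fold. In HoxA9-Ct ES Aldh1a2 was at 1.06 times the parental level, and Cyp26a1 and Rarb were below the background in both lines.

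The called genes that fell are Wnt targets. Sp5 was at 0.193 times the parental level in clone #1 and 0.109 times in clone #9 (log2 difference -2.79, adjusted p = 0.000137 in limma). Lef1 was 3.54 lower on the log2 scale (adjusted p = 1.06e-07), with clone #9 alone of the clones above background, and Axin2 was called lower between values below the background. Wnt3, Wnt3a, T and Msgn1 did not pass the background call in any line. In HoxA9-Ct ES 1 of 17 rose over parental ES, the homeobox gene Nkx1-2, at least 4.30-fold, and 0 fell. Sp5 was at 0.478 times and Lef1 at 0.280 times the parental level in HoxA9-Ct ES. Against HoxA9-Ct ES the clones were called lower for 1 of the 17, Nkx1-2, and so not for Sp5 or Lef1.

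Around Cdx2, 2 of 15 trophectoderm genes were called higher and 0 lower in the clones than in parental ES, with a median of 1.01 beside -0.18 over all probes, or 0.40 beside -0.25 with the floor. Krt8, a keratin of simple epithelia, was 3.84 and 7.47 times the parental level in clones #1 and #9 (adjusted p = 0.00210 in limma). The other call was Elf5, above background in clone #1 alone, whose log2 level was -6.08 in parental ES, -3.10 in clone #1 and -4.42 in clone #9. Several members were above background in clone #9 only, among them Gata3, Hand1 and Plac1, and Krt7 was 1.05 times the parental level in clone #1 and 5.06 times in clone #9. Tead4, Yap1 and Eomes, which act upstream of or beside Cdx2, were at 0.851 to 1.59 times the parental level and were not called.

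Around Cdx1 and Cdx2 in the gut, 1 of 18 intestinal genes rose and 1 fell in the clones against parental ES. Their median was 0.58, and its sign turned to -0.16 with the floor, beside -0.18 and -0.25 over all probes. With the floor, a gene below it in all lines compared takes -0.25. Hnf4a, an endoderm nuclear receptor, was 1.99 times the parental level in clone #1 and 7.20 times in clone #9 (adjusted p = 0.0420 in limma). Tff3, a secreted peptide of goblet cells, was 2.11 lower on the log2 scale (adjusted p = 0.0148), with clone #1 below the background. Clone #9 had 11 of the 18 genes above background, clone #1 and parental ES 6 each, and HoxA9-Ct ES 7. Cdh17, Muc2, Slc26a3 and Alpi, genes of differentiated enterocytes or goblet cells, passed the background call in no line. Other genes of the list did pass it: Sis, Lct and Krt20 in clone #9 alone, and Muc13 in clone #9 and HoxA9-Ct ES. Guca2a passed it in every line but parental ES, and Vil1 in all lines.

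Around Pdx1, 0 of 25 pancreas genes rose and 2 fell in the clones, Neurod1 (log2 difference -3.35, adjusted p = 7.44e-07 in limma, with clone #9 below the background) and Pax6, at least 1.94-fold lower. Against HoxA9-Ct ES, 1 rose, Foxa2 at least 6.38-fold, and 3 fell, among them the endocrine factor Neurog3, 3.93-fold lower. Around Gsx1 and Gsx2, 1 of 14 genes of the ventral telencephalon was called higher and 1 lower. Gad1, the enzyme of GABA synthesis, was at least 3.36-fold lower, while Dlx5, with levels of -6.18 in parental ES, -4.96 in clone #1 and -0.54 in clone #9, was above background in clone #9 alone. Of 13 motor neuron genes chosen around Mnx1, 0 were called in any comparison and 4 were well above background in each line.

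**Figure D4:**
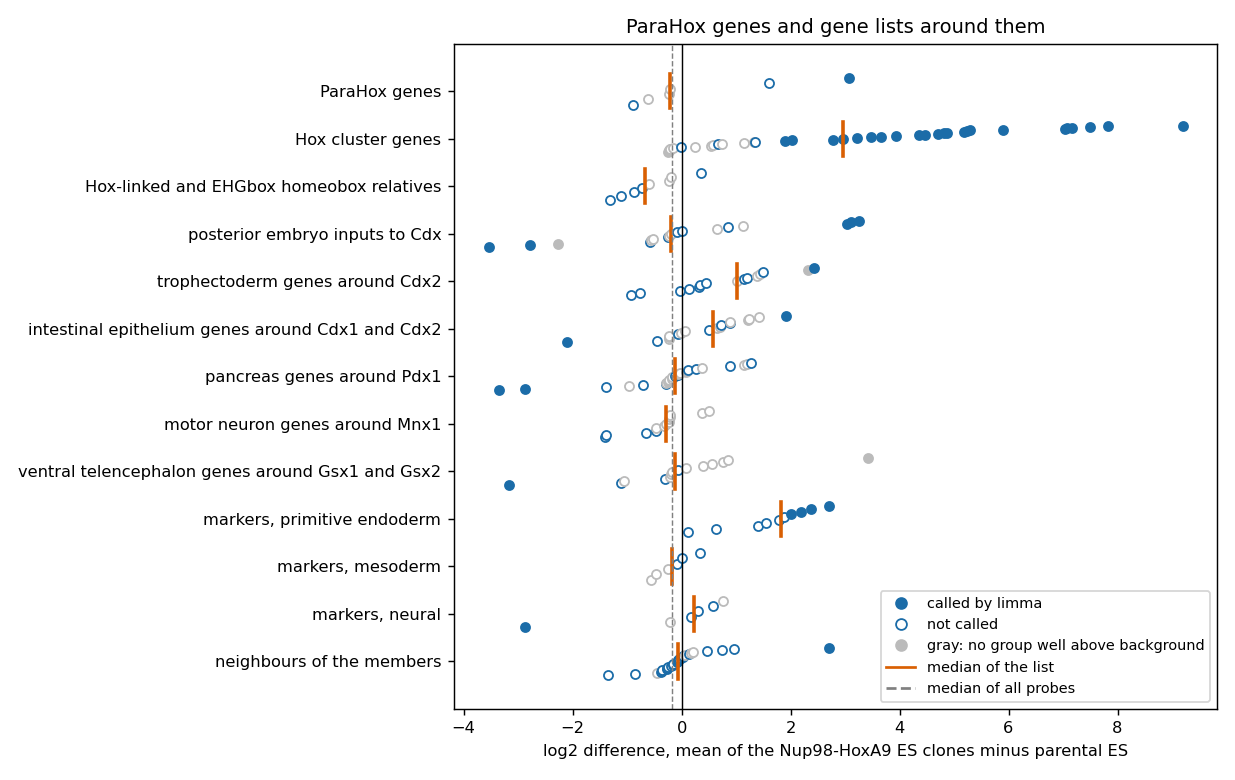
Log2 difference of the mean of the Nup98-HoxA9 clones from parental ES for the ParaHox genes, the gene lists and the cell type markers, 1 point per gene at its brightest probe. Filled points were called by limma, gray points have no group well above background, orange bars are list medians, and the dashed line is the median of all probes, -0.18. The Hox cluster genes lie farthest to the right with a median of 2.97, and the ParaHox median is -0.22.

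Markers of the primitive endoderm, an extraembryonic cell type that can arise in ES cultures, were examined beside the members. Limma called 4 of 10 higher in the clones than in parental ES (Pdgfra, Gata6, Foxq1 and Sox17) and 0 lower, beside 0.781% and 0.625% of all probes. The median was 1.83 with and without the floor. Against HoxA9-Ct ES it called 7 of 10 higher in the clones and 0 lower, beside 0.673% and 0.688% of all probes. The median there was 3.20, or 2.96 with the floor. In HoxA9-Ct ES 1 of 10, Sox17, was called lower than in parental ES, at least 2.70-fold (adjusted p = 0.00227 in limma). All 10 were above background in both clones, 9 in parental ES and 6 in HoxA9-Ct ES. Their scaled signals summed to 36.5 in parental ES and 17.6 in HoxA9-Ct ES, and to 45.8 and 44.8 in clones #1 and #9. Lama1, a laminin gene, made up most of each sum, and without it the sums were 2.91 in parental ES, 1.57 in HoxA9-Ct ES, and 7.67 and 9.70 in the clones. Pdgfra did not pass the background call in parental ES, nor did Sox17, Pdgfra, Dab2 and Foxq1 in HoxA9-Ct ES. Gata6 was 4.70 and 5.77 times the parental level in the clones, while ES cell markers were called in 0 of 14 cases. In bulk RNA fewer cells of a type and less RNA per cell cannot be told apart, and the part of such cells in the ParaHox values was not tested.

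By the distance between centred levels over the 4 lines, with the same background calls required, the patterns nearest to that of Cdx1 among 12552 genes were those of Prickle1 (distance 0.10), Ttc39c (0.16) and Prph (0.18). Prickle1, a planar cell polarity gene, stood 1.17, 2.20 and 0.14 above parental ES on the log2 scale in clone #1, clone #9 and HoxA9-Ct ES, where Cdx1 stood at 1.10, 2.10 and -0.00. Nearest to Cdx2 among 231 genes were Chdh (0.27), 3830403N18Rik (0.39) and Aldh1a3 (0.69), which like Cdx2 have parental values below the background. Aldh1a3 encodes another enzyme that makes retinoic acid. For Gsx1 they were Kdf1 (0.03), Rhbdf1 (0.05) and Rasgrp2 (0.06) among 12552 genes. For Gsx2 they were Olfr1341 (0.15), Pgpep1l (0.19) and Pou2f3 (0.25) among 81 genes above background in HoxA9-Ct ES alone. A likeness over 4 arrays is a description and says nothing of shared control.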

How the data were processed

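The authors extracted the scanned 1-colour arrays with Feature Extraction 10.10.1.1 (default settings), and what was deposited per array is an intensity for each spot, the background-subtracted, spatially detrended processed signal with its error and flags. The authors' deposited series matrix also holds intensity values, proportional to the processed signal within each array.

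Control spots were left out. Processed signals were divided by the 75th percentile of the array's 59305 spots and put on the log2 scale, and spots of a probe were averaged without flagged outliers. Each ParaHox probe has 1 spot, and none was flagged. Well above background is the software's own flag, given to 49.9% to 53.0% of spots per array, and no spot was saturated. Over 399 probes spotted repeatedly, the median SD between spots was 0.105 to 0.118 on the log2 scale. The number of arrays limits the precision.

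Genes were named through RefSeq accessions, and a gene with several probes was read at the one with the highest mean level. Limma 3.58.1 (R 4.3.3) was fitted to 3 groups over 55562 probes with 1 residual degree of freedom and Benjamini-Hochberg adjustment at 0.05. The same fit was run on arrays simulated with 1 spread for all probes, which cannot check whether the spread is equal. The prior SD was 0.454 for all probes, which gives them equal standard errors, and single arrays are assumed to vary like the clones. A p-value thus sets a difference against 1 spread between these clones, pooled over all probes, and not against their spread at the gene itself. Intervals are at 95%. Where 1 side of a comparison was not well above background, the fold is a bound against the higher of the array's lowest level called so and the probe's own level. Where the probe's own level is the higher, it is the measured ratio. The bounds leave out the error of the spots. Counts and plots used Python 3.11.15, numpy 2.4.6, pandas 2.3.3 and matplotlib 3.10.9.

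The alternatives were normexp (offset 50, on the median pixel, since a mean signal was not used here), the array median as scale, quantile normalization, a background filter, a background floor, the series matrix, trend and robust in eBayes, the mean over probes, any probe of a gene, and leaving out each clone. The members, the gene lists and the tests were chosen with earlier results of these data known. From each list, at most 5 genes by size among those called and above background were to be named, with checks, neighbours and the 3 nearest patterns. Genes named without a call, and Elf5, Axin2 and Dlx5, were chosen after their values were seen. The array annotation is on mm9, so GRCm38.p6 tables gave names, gene order and promoter windows only.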

Additional observations from a re-analysis of the deposited data

How the results depend on the processing

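Over the alternatives for single genes, 74 values kept their direction and, where tested, their side of the threshold, 6 gained a call (all Cdx1), 4 lost one (all Cdx2 against parental ES) and 2 changed sign near 0: HoxA9-Ct against parental ES at Cdx1 with quantile normalization (0.0060) and at Gsx1 with normexp (0.017). The number of members called in the clones against parental ES, 1 in the reported setting, was 0 with quantile normalization and with the background filter, settings in which limma called 0 probes overall (5069 and 2224 at an unadjusted p under 0.05), and 2 with trend and robust on. The number called against HoxA9-Ct ES, 0 as reported, was 1 (Cdx1) with normexp, with the background floor and with trend and robust on. With normexp the call against parental ES was Cdx1 in place of Cdx2, and likewise with the floor. The Cdx1 difference was 1.49 with normexp and 1.60 with the floor, beside 1.60 as reported. For Cdx2 it was 0.42 and 0.86, beside 3.08 as reported. The SE for both genes was 0.23 with normexp and 0.38 with the floor, beside 0.56 as reported. Why these values moved was not tested. The count for HoxA9-Ct against parental ES was 0 in limma under every alternative run. In the reported setting 1 member had an unadjusted p under 0.05, beside 1951 of 55562 probes. Without clone #1 or clone #9 the difference from parental ES ranged from 1.10 to 2.10 for Cdx1, 2.77 to 3.39 for Cdx2 and -1.15 to -0.63 for Gsx1. These ranges carry no test, since 1 array per group leaves no residual degree of freedom. No paired analysis was possible because each line is a separate clone or culture, and the replicate numbers link no arrays between groups. At Cdx2, Gsx1 and Gsx2 the signal over background limits what can be measured.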
